A study of Mus musculus
Rattus norvegicus and Rattus norvegicus and Mus musculus with 18 samples.

Results

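Mouse 4T1 tumor cells in the lungs of rats were compared with 4T1 tumor cells in the necrotic core of the primary mammary tumor. The comparison takes in 10 of the 18 libraries of the series, 5 from lung and 5 from core, without pairing. It covers every mouse gene with at least 1 CPM, the reads of a gene scaled to a common library size (counts per 1e6), in at least 5 of these 10 libraries, which left 13058 of the 17672 mouse genes in the deposited table. At the edge of this rule, 298 of the genes taken in reached 1 CPM in exactly 5 libraries, and 273 of the genes left out reached it in exactly 4.

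The cancer cells are 4T1, a mouse mammary carcinoma line that grows in the mammary fat pad and spreads to the lung on its own. They were placed in the mammary fat pad of SRG rats, an immunodeficient strain, and all tissue was taken on day 27. The lungs came from Rat3877, Rat3876, Rat3875, Rat3869 and Rat3789, the cores from Rat3877, Rat3876, Rat3875, Rat3869 and Rat3867, and 5 libraries of the non-necrotic rim, set beside them for single genes, from the same 5 rats as the cores. The labels give the genotype wildtype and no treatment for every lung, core and rim library, so all groups share the same cell line, host and lack of treatment, and they do not state age, sex or how the piece of lung was chosen. Values of single libraries are given below in the order of the rats just named. Polyadenylated RNA of the whole tissue was sequenced, so a read assigned to a mouse gene stands for the tumor and a read assigned to a rat gene for the host.

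Cells of a necrotic core lie far from working blood vessels. Cells short of oxygen stabilise the transcription factor Hif1a, which switches on genes for glucose use, acid export and vessel growth, and they slow their division. Claudins and E-cadherin form the junctions of an epithelium and keratins its inner scaffold, and their genes are a usual readout of how epithelial a tumor cell is.

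The lung libraries held 15346400 to 26669410 mouse reads and the core libraries 20050380 to 23803568. Mouse reads made up 64.0, 67.0, 72.7, 75.3 and 73.9% of assigned reads in the lungs and 84.5, 86.4, 86.5, 87.4 and 83.8% in the cores. Every lung lay below every core. The mean was 70.6 ± 4.85% in lung and 85.7 ± 1.51% in core (SD, n = 5 each), a difference of -15.1 points (two-sided exact permutation test, p = 0.00794). Without the lung of Rat3789 the difference was -16.0 points (p = 0.00794 in the same exact test). Mitochondrially encoded genes, a rough sign of RNA quality, took 1.98 ± 0.261% of mouse reads in lung and 2.08 ± 0.304% in core, and this difference was within the spread between libraries (exact permutation p = 0.627, and 0.937 without the lung of Rat3789). In normal rat mammary gland, which has no mouse cells, 1.78 and 1.96% of the reads of the 2 libraries fell on mouse genes, and in a pellet of cultured 4T1 cells 99.3% did.

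The library labelled lung of Rat3789 went against its label in its host genes. Rat Sftpc, the surfactant protein of alveolar type 2 cells, stood at 1.88 CPM there and at 3130 to 5680 CPM in the other 4 lungs. Rat Scgb1a1, the secretoglobin of airway club cells, stood at 1.54 CPM there and at 740 to 2960 CPM in the other lungs. Rat Ager, a membrane receptor of alveolar type 1 cells, stood at 8.25 CPM there and at 760 to 1420 CPM in the other lungs. Its summed level of 10 rat fibroblast markers was 26300 CPM, against 2540 to 6630 CPM in the other lungs, 3480 to 11400 CPM in the cores and 32200 to 59300 CPM in the rims. The summed rat alveolar type 2 list, at 16900 CPM, lay inside the range of the other lungs, 16600 to 25500 CPM, and 16600 CPM of it was Lyz2, a lysozyme that macrophages also make. The library is kept under its label, and results are given with it and without it.

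**Figure D1:**
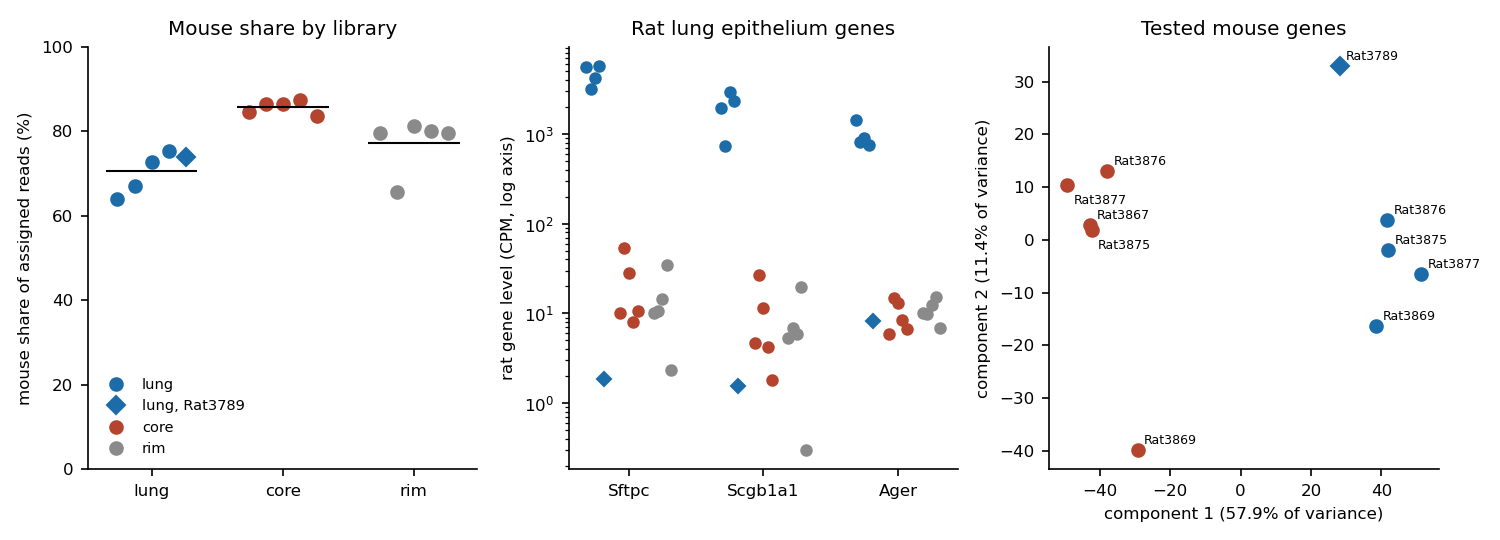
Left, mouse share of assigned reads in percent by tissue, with a line at the mean of 5 libraries. Middle, level of 3 rat genes of lung epithelium in CPM on a log axis. Right, the first 2 principal components of the tested mouse genes in the 10 libraries compared. Colours mark lung, core and rim, and the diamond is the lung of Rat3789, which lies among or below the tumor libraries in the 3 rat genes and on the lung side of the first component.

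In mouse genes the 5 lungs and 5 cores stood apart on the first principal component, which held 57.9% of the variance of the tested genes. The second component, with 11.4%, had the lung of Rat3789 at one end and the core of Rat3869 at the other. Over the 1270 genes that were called and at least 2-fold apart, the lung of Rat3789 was the lung nearest to the cores in 51.5%, against 5.91 to 17.3% for each other lung. The core of Rat3869 was the core nearest to the lungs in 36.9% of them, against 9.92 to 21.9% for each other core.

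Between lung and core, 4736 of 13058 mouse genes were called by limma at a Benjamini-Hochberg adjusted p under 0.05, which is 36.3% of those tested. Of these, 2237 (17.1% of tested) were higher and 2499 (19.1%) were lower in lung. At least 2-fold differences were fewer, with 525 genes (4.02%) higher and 745 (5.71%) lower. The lung and core libraries did not overlap in 2943 genes (22.5%), and 2853 of those were called. Without the lung of Rat3789, 4949 genes (37.9%) were called, 2285 (17.5%) higher and 2664 (20.4%) lower, with 602 (4.61%) and 820 (6.28%) at least 2-fold apart. 4401 genes were called in the same direction with and without this library, 92.9% of the first set and 88.9% of the second. The split depended on the scaling: after scaling each library only to its total, 3053 genes were higher and 1875 lower, so that 62.0% of calls were higher in lung in place of 47.2%. That scaling moved the median log2 difference of all tested genes by 0.09, to 0.08 in place of -0.02. The share of 36.3% is the background against which each list below is read, and a list with about 1 in 3 of its members called is near it.

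**Figure D2:**
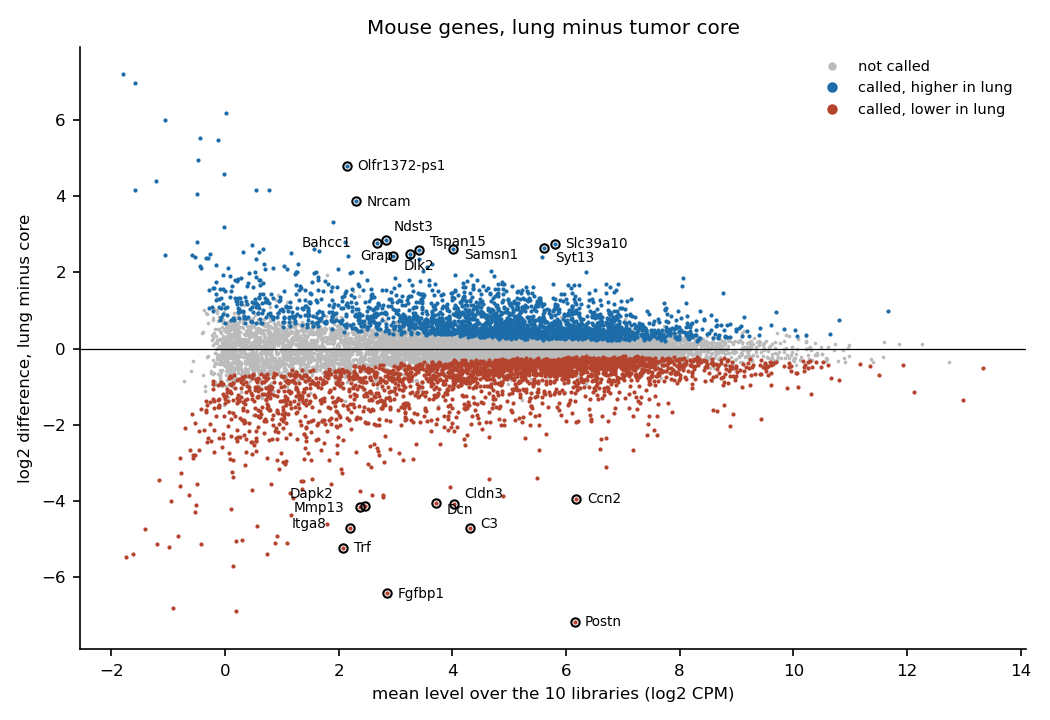
Each point is a mouse gene; the horizontal axis is its mean level over the 10 libraries in log2 CPM and the vertical axis its log2 difference, lung minus core. Coloured points were called by limma, and circles mark the 10 largest rises, from Dlk2 at 2.43 to Olfr1372-ps1 at 4.79, and the 10 largest falls, from Ccn2 at -3.95 to Postn at -7.17, among genes whose mean was 2 log2 CPM or more and whose groups did not overlap.

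None of the 10 genes that rose most in lung is a member of the gene lists used below. Nrcam, a neuronal cell adhesion molecule, lies on the plus strand of chromosome 12 from 44328885 to 44601964 (GRCm38). It stood at 24.9, 20.4, 27.1, 24.5 and 7.04 CPM in the lungs and at 2.06, 1.02, 1.41, 1.68 and 0.748 CPM in the cores. The lung of Rat3789 had the lowest lung value, still above every core. The log2 difference was 3.86 ± 0.37 (SE, adjusted p = 1.77e-05), or 14.5-fold, and 4.21 ± 0.27 without that library. Syt13, a synaptotagmin, the family of membrane trafficking proteins, was the most even of the large rises. It stood at 153, 101, 126, 103 and 141 CPM in the lungs and at 30.1, 19.1, 17.2, 14.8 and 19.8 CPM in the cores (log2 difference 2.65 ± 0.18, adjusted p = 2.51e-06). Slc39a10, a zinc importer, averaged 148 ± 36.8 CPM in lung and 22.2 ± 5.92 CPM in core (2.74 ± 0.20, adjusted p = 4.53e-06).

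Ndst3, an enzyme that sulfates heparan sulfate chains, averaged 19.5 ± 4.04 CPM in lung and 3.13 ± 2.30 CPM in core (log2 difference 2.86 ± 0.35). Bahcc1, a chromatin protein with a BAH domain, averaged 18.0 ± 7.94 CPM in lung and 2.46 ± 0.423 CPM in core (2.77 ± 0.28). The adaptor Samsn1 (2.61 ± 0.21), the tetraspanin Tspan15, a partner of the protease Adam10 (2.57 ± 0.22), the adaptor Grap, a relative of Grb2 (2.48 ± 0.24), and Dlk2, a relative of the Notch ligands (2.43 ± 0.31), rose by amounts of the same order. The rise of highest rank was that of Olfr1372-ps1, an olfactory receptor pseudogene, with 35.3, 12.2, 36.9, 45.8 and 9.46 CPM in the lungs and 0.631 to 0.941 CPM in the cores (4.79 ± 0.40, adjusted p = 7.04e-06, and 5.11 without the lung of Rat3789). All of its core values lay under 1 CPM, so Olfr1372-ps1 passed the filter through the lungs alone. The separation of its groups follows from the filter and is no separate result. Its interval on chromosome 11, from 52154722 to 52168159 on the minus strand, overlaps the annotated gene Gm26551 on the same strand, so its reads cannot be placed with certainty.

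Whether such a gene also stood above the rim was tested with the same lungs against the 5 rim libraries, in which 2603 of 12970 genes (20.1%) were called, and 2831 (21.8%) without the lung of Rat3789. The lungs enter both comparisons, so the values are given side by side only. Nrcam stood at 0.312 to 2.17 CPM in the rims (lung minus rim 4.47, adjusted p = 0.000291), and Syt13 at 13.0 to 32.5 CPM (2.7, adjusted p = 9.47e-05). Tspan15 (3.15), Grap (3.15) and Dlk2 (2.88) were likewise higher in lung than in rim, with adjusted p from 0.000243 to 0.00042. Samsn1 had 31.4 to 47.7 CPM in the rims, a range that the lungs overlap (0.13, adjusted p = 0.579). Slc39a10 had 62.9 to 133 CPM in the rims, and its lung minus rim difference of 0.71 (adjusted p = 0.0347) was smaller than its lung minus core difference.

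The largest fall in lung was that of Postn, the matrix protein periostin, on the plus strand of chromosome 3 from 54361109 to 54391037. It stood at 6.93, 11.9, 19.0, 8.13 and 0.575 CPM in the lungs and at 1690, 1000, 649, 445 and 931 CPM in the cores. The groups did not overlap, and the lung of Rat3789 was the lowest of all. The log2 difference was -7.17 ± 0.73 (adjusted p = 2.67e-05), 144-fold lower, and -6.33 ± 0.35 without that library. Fgfbp1, a carrier that frees fibroblast growth factors from the matrix, averaged 0.881 ± 0.417 CPM in lung and 70.1 ± 22.8 CPM in core (-6.43 ± 0.36, adjusted p = 8.77e-07), which is 86.1-fold lower. It was called lower than in the rim as well (-3.99, adjusted p = 0.00046). The lung minus rim difference of Postn did not pass the threshold (-1.52, adjusted p = 0.207).

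The other large falls were those of Trf, the iron carrier transferrin (log2 difference -5.23 ± 0.60), C3, the central complement protein (-4.72 ± 0.36), Itga8, an integrin chain (-4.71 ± 0.86), the kinase Dapk2 (-4.15 ± 0.45), the collagenase Mmp13 (-4.13 ± 0.38), the tight junction protein Cldn3 (-4.09 ± 0.46), the proteoglycan decorin, Dcn (-4.07 ± 0.49), and Ccn2, a matricellular protein also called connective tissue growth factor (-3.95 ± 0.32). Ccn2 had the highest level of these in lung, with 11.2, 9.30, 19.4, 33.9 and 31.4 CPM there and 323, 204, 334, 328 and 267 CPM in the cores. Itga8 rested in part on one library, since it stood at 0.0595 CPM in the lung of Rat3789 and its difference was -3.73 ± 0.42 without it (adjusted p = 4.39e-05). In the lungs, mouse reads of Postn, Itga8, Dcn and C3 came to 4.73, 3.40, 4.4 and 6.86% of the rat reads of the same gene, and the part of wrongly assigned rat reads in these lung values was not tested.

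**Figure D3:**
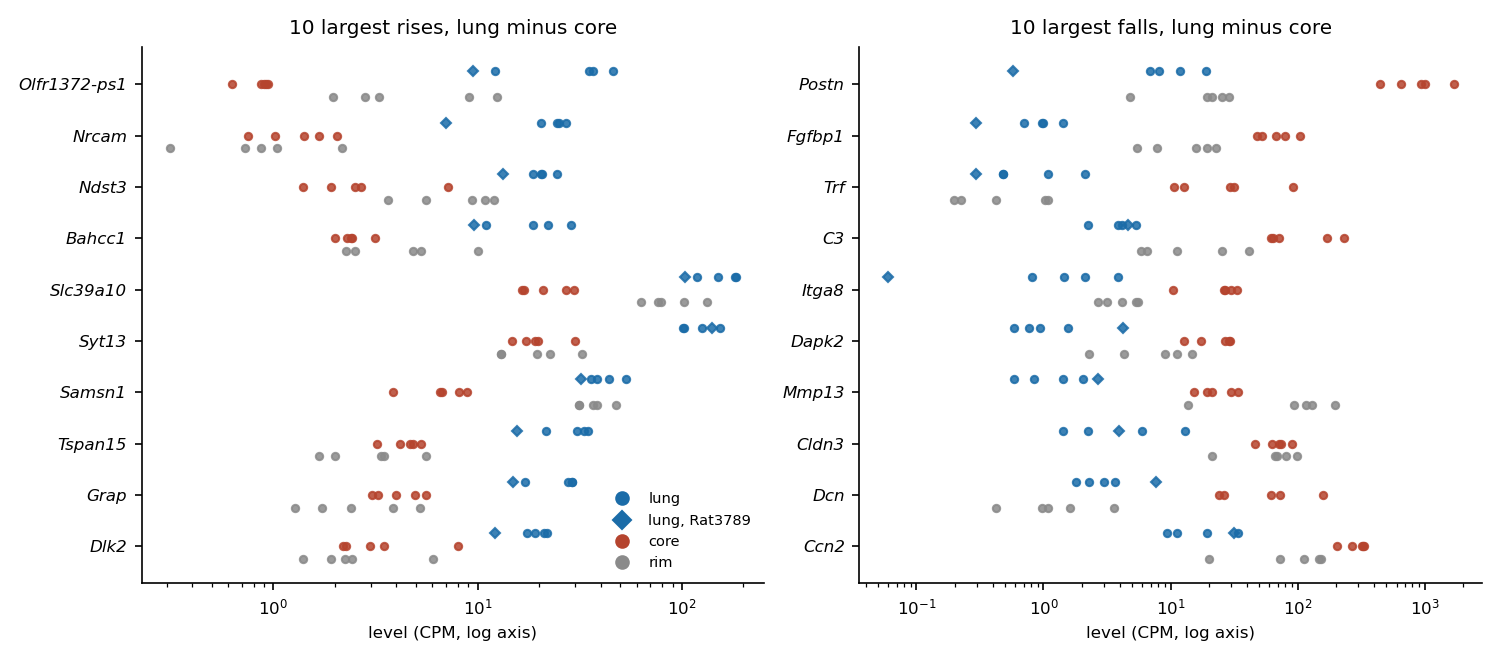
Level in CPM, on a log axis, of the 10 largest rises (left panel) and the 10 largest falls (right panel) in each library, with the lungs above the cores and the cores above the rims for each gene. Only genes without overlap were chosen, so the lungs lie clear of the cores for all 20 by that rule. The rims lie with the lungs for Samsn1, Trf and Dcn and with the cores for Nrcam, Grap, Tspan15 and Cldn3.

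Genes of cell division rose together in lung. All 20 members of the G2 and mitosis list were called higher, with a median log2 difference of 1.41 against -0.02 over all tested genes, and in all 20 the lungs did not overlap the cores. All 20 members of the DNA replication list were called higher too, with a median of 1.06. Both counts were 20 without the lung of Rat3789, where the medians were 1.49 and 1.14. The background for calls in this direction is 17.1%.

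Mki67, the proliferation antigen Ki-67, stood at 533, 479, 504, 452 and 361 CPM in the lungs and at 96.8, 200, 190, 110 and 181 CPM in the cores. Each lung lay above each core, and the lung of Rat3789 was the lowest lung. The log2 difference was 1.63 ± 0.20 (adjusted p = 7.39e-05), or 3.10-fold. Plk1, the kinase that drives entry into mitosis (1.62 ± 0.14), Cenpe and Cenpf, proteins of the kinetochore (1.61 ± 0.15 and 1.54 ± 0.17), and Top2a, the topoisomerase that separates sister chromatids (1.46 ± 0.16), rose by similar amounts. Rrm2, a subunit of ribonucleotide reductase, was the largest rise of the replication list, with 162, 134, 196, 210 and 129 CPM in the lungs and 28.4, 56.0, 38.7, 35.6 and 50.3 CPM in the cores (2.01 ± 0.19, adjusted p = 1.66e-05). Cdc6, which loads the replicative helicase (1.70 ± 0.17), Gins1, a part of that helicase complex (1.51 ± 0.17), and Mcm6, a helicase subunit (0.90 ± 0.12), also rose.

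Against the rim the same lists showed less. There 7 of the 20 mitosis genes and 5 of the 20 replication genes were called higher in lung and none lower, against 20.1% of all genes called in either direction, and 9 and 8 were higher without the lung of Rat3789. Mki67 stood at 385 to 602 CPM in the rims, and its lung minus rim difference was 0.05 (adjusted p = 0.833). The mean log2 CPM over the mitosis list ran from 6.76 to 7.20 in the lungs, from 5.24 to 6.04 in the cores and from 6.57 to 7.09 in the rims. The core ranges lay below those of lung and rim, which overlapped.

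Hypoxia genes moved the other way. Of 23 tested members of the hypoxia list, 22 were called lower in lung and none higher, with a median log2 difference of -1.43, and the count was 22 without the lung of Rat3789 as well. The background for this direction is 19.1%. The exception was Angptl4, an angiopoietin-like protein, at 0.68 (adjusted p = 0.423). The mean log2 CPM over the list was 5.09 to 6.25 in the lungs, 6.75 to 7.42 in the cores and 6.03 to 6.74 in the rims.

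Car9, a carbonic anhydrase that exports acid and a usual hypoxia marker, stood at 43.5, 52.4, 95.9, 136 and 196 CPM in the lungs and at 278, 385, 628, 349 and 397 CPM in the cores. The groups did not overlap, and the lung of Rat3789 came nearest to the cores. The log2 difference was -2.13 ± 0.36 (adjusted p = 0.000645), and -2.41 ± 0.31 without it. Stc2, a secreted glycoprotein induced by stress, was at 1.30 to 1.77 CPM in all 5 lungs and at 11.6 to 42.5 CPM in the cores (-3.85 ± 0.30, adjusted p = 6.28e-06). Adm, the vasodilator peptide adrenomedullin (-2.32 ± 0.39), and Ndrg1, a protein widely induced by low oxygen (-2.03 ± 0.32), fell as well. Against the rim, 11 of the 23 were called lower and none higher (14 without the lung of Rat3789), and Car9 was among them (-1.39, adjusted p = 0.0166).

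The glycolytic enzymes fell less evenly. Of 17 tested genes, 10 were called lower and none higher, with a median of -0.74, and 13 were lower without the lung of Rat3789. The background for calls in this direction is 19.1%. Eno2, an enolase isoform, showed the largest fall, with 21.0 ± 9.33 CPM in lung and 77.7 ± 28.8 CPM in core (-1.93 ± 0.33). Pfkfb3, which makes the activator of phosphofructokinase (-1.30 ± 0.21), the aldolase Aldoa (-1.02 ± 0.18) and the hexokinase Hk2 (-0.97 ± 0.13) also fell. Pkm, the pyruvate kinase and the most abundant enzyme of the list, averaged 2430 ± 393 CPM in lung and 3080 ± 426 CPM in core, where the groups overlapped (-0.35 ± 0.14, adjusted p = 0.0713). It passed the threshold without the lung of Rat3789 (-0.42, adjusted p = 0.031), without the core of Rat3876 (-0.40, adjusted p = 0.0494) and with the rat as a block (-0.40, adjusted p = 0.0274). A second identifier that carries the symbol Aldoa is not counted here.

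**Figure D4:**
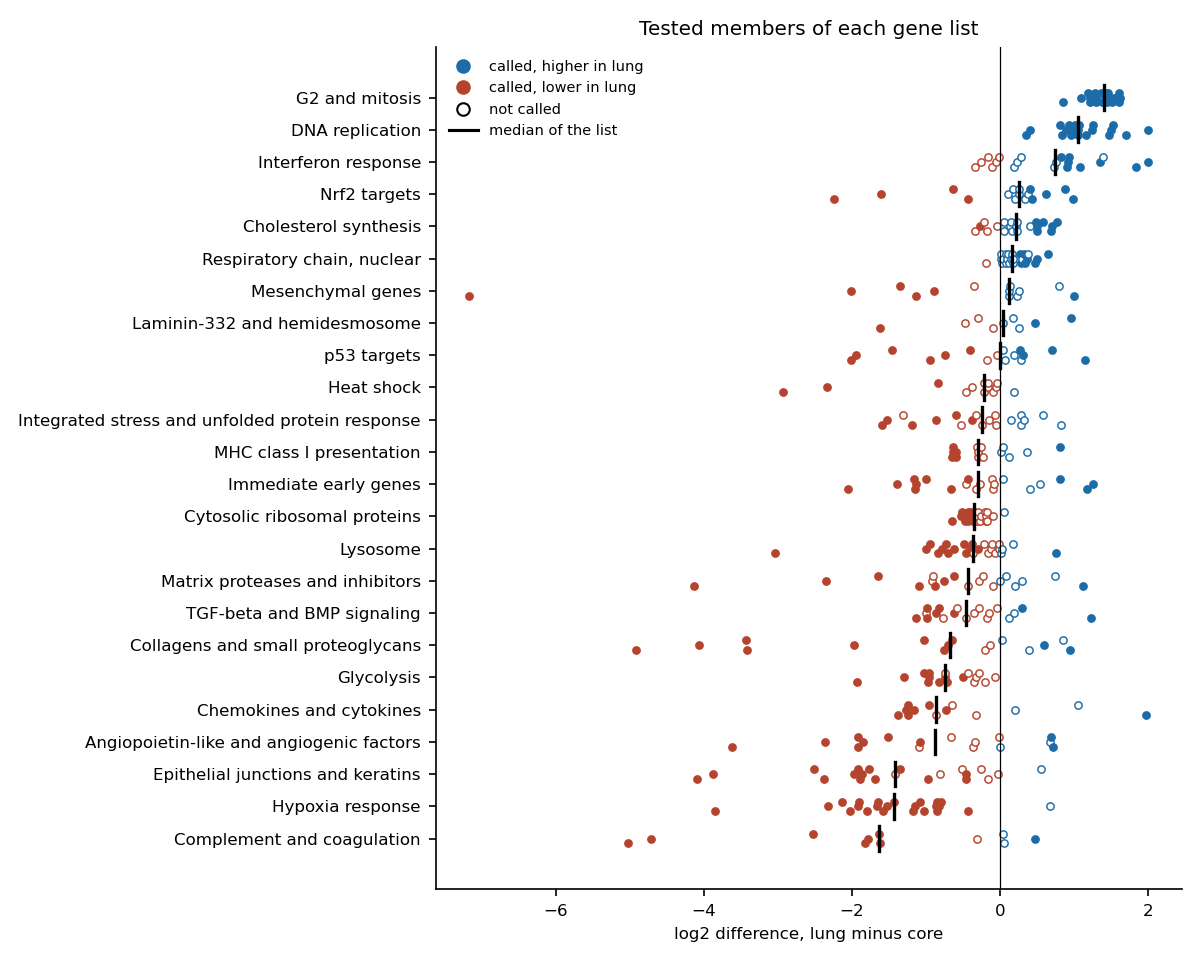
Log2 difference, lung minus core, of every tested member of 24 gene lists, sorted by the median of the list, which the black bar marks. Filled points were called by limma; the mitosis and replication lists lie wholly to the right of 0, and 22 of 23 hypoxia genes lie to the left.

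Genes of epithelial junctions fell in lung. Of 21 tested members of this list, 14 were called lower and none higher, with a median of -1.41, and 13 were lower without the lung of Rat3789. The background for calls in this direction is 19.1%. Cldn4, a tight junction claudin on chromosome 5 from 134945119 to 134946934, stood at 3.23, 11.2, 5.57, 18.5 and 7.44 CPM in the lungs and at 137, 144, 80.4, 109 and 107 CPM in the cores. No lung came near a core (-3.87 ± 0.36, adjusted p = 1.66e-05). Cdh1, the adherens junction protein E-cadherin, stood at 55.0, 37.4, 44.9, 100 and 16.2 CPM in the lungs and at 209, 219, 244, 255 and 199 CPM in the cores (-2.38 ± 0.34, adjusted p = 0.000231, and -2.02 ± 0.22 without the lung of Rat3789). Esrp1, a splicing factor of epithelial cells, fell by 2.51 ± 0.48 on the log2 scale, or by 1.98 ± 0.26 without that library.

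The keratins Krt8 and Krt14 did not pass the test against the core. Krt8, a keratin of simple epithelium and the most abundant gene of the list, averaged 1210 ± 227 CPM in lung and 1230 ± 314 CPM in core (-0.02 ± 0.17, adjusted p = 0.939). Krt14, a basal keratin, averaged 5.47 ± 3.89 CPM in lung and 5.97 ± 2.45 CPM in core, with overlapping groups (-0.51 ± 0.61, adjusted p = 0.541). Against the rim, 16 of 20 tested genes of the list were called lower in lung and none higher, also without the lung of Rat3789. They included Cldn4 (-4.99), Cdh1 (-2.54), Krt8 (-0.57) and Krt14 (-4.50), which had 15 to 156 CPM in the rims.

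Of 9 genes for laminin-332 and the hemidesmosome that anchors epithelium to it, 2 were called higher, 1 lower and 6 neither, with a median of 0.04, and the counts were the same without the lung of Rat3789. The called share was near the background of 36.3%. Plec, the linker protein plectin, rose by 0.96 ± 0.13 (adjusted p = 0.000147), and the integrin chain Itgb4 by 0.48 ± 0.14 (adjusted p = 0.0151).

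**Figure D5:**
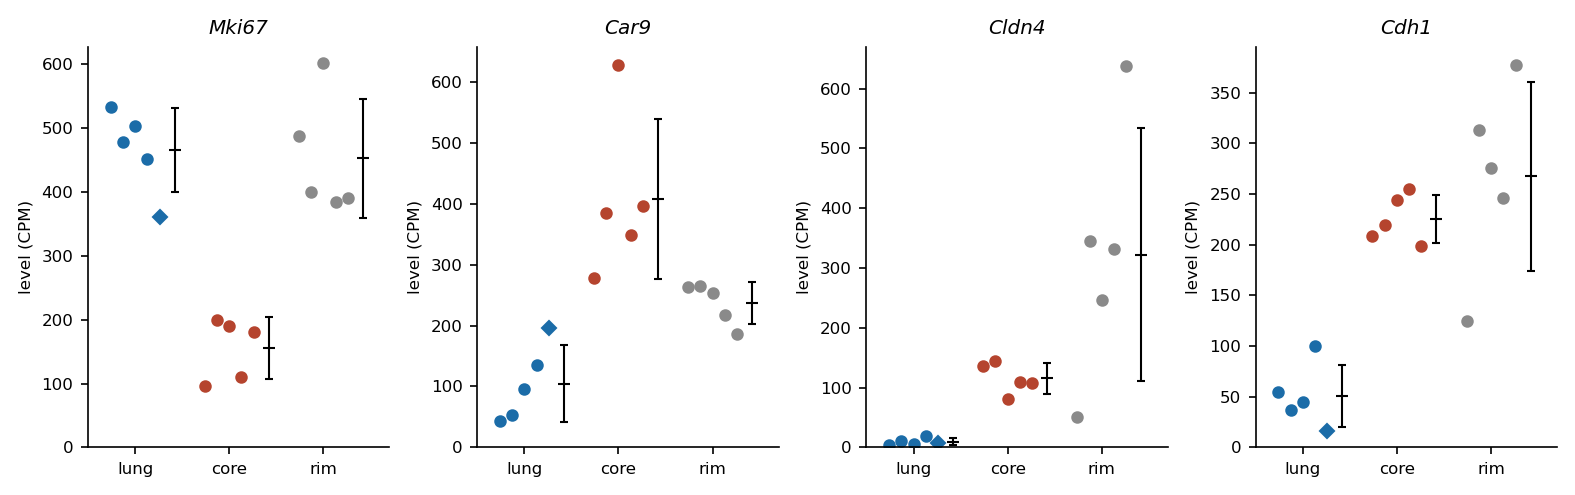
Level in CPM of the proliferation antigen Mki67, the hypoxia marker Car9, the claudin Cldn4 and the E-cadherin gene Cdh1 in each library, with the mean and SD of 5 libraries beside the points. The diamond is the lung of Rat3789; Mki67 is lowest in the cores, Car9 highest in the cores, and Cldn4 and Cdh1 lowest in the lungs.

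Matrix genes were mostly lower in lung than in core, and the largest falls were of genes that fibroblasts usually make. Of 16 tested collagens and small proteoglycans, 9 were called lower and 2 higher, with a median of -0.68 (10 lower and 1 higher without the lung of Rat3789). The background is 36.3% called in either direction and 19.1% called lower. Bgn, the proteoglycan biglycan, was at 0.216, 0.253, 0.269, 0.342 and 0.972 CPM in the lungs and at 30.1, 11.1, 4.73, 3.59 and 21.4 CPM in the cores (-4.91 ± 0.58, adjusted p = 6.21e-05). All lungs lay below 1 CPM and all cores above it, so Bgn passed the filter through the cores alone. The separation of its groups follows from the filter and is no separate result. The cores varied widely among themselves. Ogn, the proteoglycan osteoglycin (-3.44 ± 0.49), and Col12a1, a collagen that sits on fibrils (-3.41 ± 0.44), fell as well. Col18a1, the basement membrane collagen and the most abundant of the list, averaged 965 ± 101 CPM in lung and 746 ± 179 CPM in core (0.40 ± 0.15, adjusted p = 0.0525). It passed the threshold without the core of Rat3875 (0.51, adjusted p = 0.014) or the core of Rat3867 (0.46, adjusted p = 0.0447), with the rat as a block (0.45, adjusted p = 0.0429) and under scaling to total reads (0.49, adjusted p = 0.0176). The count higher in this list was 1 without the core of Rat3876. Between lung and rim, 5 of 14 tested genes of the list were called higher in lung and 2 lower. Without the lung of Rat3789, 5 were higher and 5 lower. There 20.1% of all tested genes were called.

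Of 13 tested mesenchymal genes, 5 were called lower and 1 higher (6 and 1 without the lung of Rat3789), with a median of 0.12. The count higher was 2 without the lung of Rat3877 and under scaling to total reads. Over all tested genes, 36.3% were called in either direction and 19.1% were called lower. Below Postn, the falls included those of Tnc, the matrix glycoprotein tenascin (-2.01 ± 0.35), Fn1, fibronectin (-1.34 ± 0.35), and Spp1, osteopontin (-1.13 ± 0.28). Fn1 was among the most abundant mouse genes, with 3310, 5410, 4410, 3930 and 10800 CPM in the lungs and 18100, 13400, 15500, 5850 and 16100 CPM in the cores. Its groups overlapped through the lung of Rat3789 and the core of Rat3869, and without the first the difference was -1.62 ± 0.30 (adjusted p = 0.00111).

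Of 19 tested matrix proteases and their inhibitors, 7 were called lower and 1 higher, with a median of -0.43 (8 and 2 without the lung of Rat3789, 2 higher with the rat as a block, and 3 higher without the lung of Rat3789 and the core of Rat3869). The called share in the main fit was near the background of 36.3%. The gelatinase Mmp2 fell by 1.64 ± 0.47 on the log2 scale with overlapping groups and low levels, 1.91 ± 0.812 CPM in lung and 7.36 ± 7.24 CPM in core. Adam8, a membrane protease, was the one that rose, with 90.1, 98.7, 100, 110 and 113 CPM in the lungs and 25.0, 43.6, 71.3, 53.1 and 55.5 CPM in the cores (1.12 ± 0.22, adjusted p = 0.00152). It was higher in lung than in rim as well (0.84, adjusted p = 0.00268). Timp2, a tissue inhibitor of metalloproteinases and the most abundant of the list, averaged 543 ± 50 CPM in lung and 663 ± 86.5 CPM in core (-0.28 ± 0.11, adjusted p = 0.0574), and it passed the threshold without the core of Rat3869 (-0.36, adjusted p = 0.00842) and with the rat as a random block (-0.28, adjusted p = 0.0348).

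The summed level of rat fibroblast markers was highest in the rims (32200 to 59300 CPM). Mouse Postn stood there at 4.76 to 28.6 CPM, mouse Dcn at 0.424 to 3.6 CPM and mouse Col1a1 at 1.27 to 61.7 CPM. Among the lungs, that of Rat3789 had the most rat Dcn, 780 CPM against 66.1 to 87.5 CPM in the others. It also had the most mouse Dcn, 7.68 CPM against 1.8 to 3.64 CPM, but the least mouse Postn, 0.575 CPM. In the lungs, mouse reads of Bgn and Mmp2 came to 0.138 and 1.55% of the rat reads of the same gene, and the part of stray rat reads in them was not tested. In bulk tissue, fewer cells that make a transcript and less transcript per cell cannot be told apart, and this holds for each result here.

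Among 16 tested genes of angiopoietin-like and angiogenic factors, 7 were called lower and 2 higher, with a median of -0.87 (8 and 2 without the lung of Rat3789). The count higher was 1 without the lungs of Rat3877, Rat3876, Rat3875 or Rat3869 or the cores of Rat3876, Rat3875 or Rat3869. The background is 36.3% called in either direction and 19.1% called lower. Angptl7, a relative of the angiopoietins, had 2.86, 5.37, 2.67, 2.30 and 18.5 CPM in the lungs and 122, 33.0, 50.8, 40.1 and 60.5 CPM in the cores. The lung of Rat3789 was the highest lung and still below every core. The log2 difference was -3.62 ± 0.51 (adjusted p = 0.000195), and -4.14 ± 0.34 without it. Against the rims, at 0.973 to 2.64 CPM, lung Angptl7 did not pass the threshold (1.45, adjusted p = 0.0637). The gene, on the minus strand of chromosome 4 from 148495183 to 148500460, lies inside Mtor, which is on the plus strand, and whether reads were counted by strand is not stated here.

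The platelet-derived growth factors Pdgfb (-2.37 ± 0.25) and Pdgfc (-1.91 ± 0.30) and the fibroblast growth factor Fgf1 (-1.92 ± 0.34) fell. Vegfa, the main vessel growth factor and a hypoxia target, stood at 40.9, 91.1, 48.2, 51.3 and 34.7 CPM in the lungs and at 147, 90.8, 115, 84.3 and 106 CPM in the cores. The groups overlapped through the lung of Rat3876 (-1.08 ± 0.22, adjusted p = 0.00249). Angptl2, another angiopoietin-like protein and the most abundant of the list, rose, with 401 ± 21.4 CPM in lung and 249 ± 63.8 CPM in core (0.72 ± 0.14, adjusted p = 0.00146).

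Complement genes were lower in lung than in core. Of 11 tested genes of complement and coagulation, 7 were called lower and 1 higher, with a median of -1.64, and the counts were the same without the lung of Rat3789. The background is 36.3% called in either direction and 19.1% called lower. C3 stood at 3.85, 5.31, 2.24, 4.17 and 4.62 CPM in the lungs and at 171, 64.2, 61.2, 71.9 and 230 CPM in the cores. C1s1, a protease of the first complement component, stood at 0.114 to 0.646 CPM in the lungs and at 4.68 to 15.8 CPM in the cores (-5.02 ± 0.48, adjusted p = 1.71e-05). It passed the filter through the cores alone, so the separation of its groups follows from the filter. C4b (-2.52 ± 0.41), which has a near-identical copy that can share its reads, and the protease C1ra (-1.82 ± 0.38) fell too. Procr, the endothelial protein C receptor, was the one that rose (0.47 ± 0.12, adjusted p = 0.00645). Without genes whose mouse reads in lung come to under 5% of the rat reads, 4 complement genes were left among those called lower. This rule cannot leave out a gene with no rat reads under the same symbol, such as C1s1. Between lung and rim, 4 of 9 tested genes of the list were called higher in lung and 2 lower, with a median of 0.65. Without the lung of Rat3789, 2 were higher and 2 lower. There 20.1% of all tested genes were called.

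Of 13 tested chemokines and cytokines, 7 were called lower and 1 higher, with a median of -0.87 (8 and 1 without the lung of Rat3789, but 4 lower without the core of Rat3867 and 3 lower in the 4 rats that gave both tissues). The background is 36.3% called in either direction and 19.1% called lower. Ptgs2, the inducible cyclooxygenase, averaged 99.5 ± 29.8 CPM in lung and 262 ± 89.0 CPM in core (-1.38 ± 0.25, adjusted p = 0.00105). The chemokine Cxcl16 fell by 1.27 ± 0.28 on the log2 scale. Ccl2, a monocyte chemokine, fell by 1.24 ± 0.37 (adjusted p = 0.0196), a call that was lost without the core of Rat3867 (-1.07, adjusted p = 0.0545). Ccl5, a chemokine of T cells, rose at low level, with 2.87 ± 1.12 CPM in lung and 0.824 ± 0.492 CPM in core (1.98 ± 0.48, adjusted p = 0.00682). Csf1, the macrophage growth factor and the most abundant of the list, averaged 308 ± 96.9 CPM in lung and 260 ± 48.8 CPM in core (0.21 ± 0.19, adjusted p = 0.42), but it was higher in lung than in rim, at 91.8 to 167 CPM (1.21, adjusted p = 0.00387).

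Of 20 tested members of the list of interferon-stimulated genes, 8 were called higher in lung and none lower, and 12 were not called, with a median of 0.75. Without the lung of Rat3789, 11 were higher, and without the lung of Rat3869, 1 was lower. Against the core, 36.3% of all tested genes were called in either direction and 17.1% higher. Against the rim none of these genes was higher and 1 was lower, and 5 were higher and none lower without the lung of Rat3789. Isg15, a ubiquitin-like protein, stood at 20.4, 15.6, 11.8, 24.2 and 7.91 CPM in the lungs and at 4.8, 4.78, 6.12, 9.25 and 5.04 CPM in the cores. The lung of Rat3789 was the lowest lung and was passed by the core of Rat3869 (1.36 ± 0.29, adjusted p = 0.00277, and 1.58 ± 0.24 without the lung of Rat3789). The antiviral proteins Rsad2 (2.0 ± 0.58) and Ifit1 (1.08 ± 0.31) rose. The chemokine Cxcl10, at 2.92 ± 1.93 CPM in lung and 0.780 ± 0.438 CPM in core, passed the threshold (1.85 ± 0.63, adjusted p = 0.0352). It missed the threshold when any one of the lungs of Rat3877, Rat3876, Rat3875 and Rat3869 or the cores of Rat3877, Rat3876 and Rat3869 was left out, with adjusted p from 0.0508 to 0.0912. Irf1, a transcription factor and the most abundant of the list, did not pass the threshold (-0.10 ± 0.21, adjusted p = 0.732).

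Of 15 tested genes of MHC class I presentation, 5 were called lower and 1 higher, with a median of -0.29 (6 and 1 without the lung of Rat3789). With the rat as a block 8 were lower, and without the core of Rat3876 2 were higher. In the main fit the called share of this list was near the background of 36.3%. B2m, the light chain of these molecules, averaged 882 ± 229 CPM in lung and 1340 ± 104 CPM in core (-0.63 ± 0.15, adjusted p = 0.00476). The heavy chains H2-K1 (-0.65 ± 0.14), H2-T23 (-0.63 ± 0.10) and H2-D1 (-0.59 ± 0.15) fell by like amounts, though near-identical copies can share their reads. Psmb10, a subunit of the immunoproteasome, rose, with 65.1 ± 9.92 CPM in lung and 37.3 ± 7.86 CPM in core (0.82 ± 0.15, adjusted p = 0.00125).

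Of 19 tested genes of the integrated stress response and the unfolded protein response, 6 were called lower and none higher, with a median of -0.24, a share near the background of 36.3%. Without the lung of Rat3789, 5 were lower and 2 higher, without the core of Rat3869, 2 were higher, and with the rat as a block 1 was higher. Without both the lung of Rat3789 and the core of Rat3869, 5 were higher. Ppp1r15a, a phosphatase subunit that restores translation, stood at 7.12 to 14.2 CPM in the lungs and at 33.4, 14.5, 38.8, 43.4 and 44.9 CPM in the cores (-1.59 ± 0.28, adjusted p = 0.000964). Ddit3, the death-linked transcription factor Chop (-1.53 ± 0.30), Cebpb, a related factor (-1.18 ± 0.22), and Dnajb9, a chaperone of the endoplasmic reticulum (-0.86 ± 0.12), fell. Hspa5, the main chaperone there, averaged 1590 ± 260 CPM in lung and 2150 ± 1120 CPM in core (-0.32 ± 0.25, adjusted p = 0.341).

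Of 13 tested heat shock genes, 3 were called lower and none higher, with a median of -0.21, and the counts were the same without the lung of Rat3789. This is below the background share of 36.3%. The 3 were Hspb1 (-2.93 ± 0.69), Hspa1b (-2.34 ± 0.53) and Dnajb1 (-0.83 ± 0.26), all chaperones. Hspa1b stood at 34.2 to 60.8 CPM in the lungs and at 297, 65.7, 110, 385 and 835 CPM in the cores, and a near-identical copy can share its reads. Dnajb1 lost its call without the lungs of Rat3877, Rat3876 or Rat3875 or the core of Rat3869 (adjusted p from 0.0503 to 0.0514). The most abundant member, Hsp90ab1, did not pass the threshold (-0.22 ± 0.12, adjusted p = 0.171).

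Of 20 tested immediate early genes, which cells induce within minutes of a stimulus, 8 were called lower and 3 higher, with a median of -0.29 (7 and 4 without the lung of Rat3789). Over all tested genes, 36.3% were called, 19.1% lower and 17.1% higher. Fos, a subunit of the factor AP-1, was even in the lungs, at 6.5 to 9.68 CPM, and uneven in the cores, at 41.2, 13.0, 43.8, 16.3 and 91.0 CPM (-2.05 ± 0.42, adjusted p = 0.00228). Fosl1, another Fos family member, went the other way, with 83.3, 57.6, 68.6, 67.1 and 47.2 CPM in the lungs and 16.8, 18.1, 30.6, 41.8 and 33.6 CPM in the cores (1.26 ± 0.24, adjusted p = 0.00141). It was higher in lung than in rim as well (1.45, adjusted p = 0.003). The phosphatase Dusp1 fell by 1.39 ± 0.41 on the log2 scale, a call that was lost with the rat as a block (-1.11, adjusted p = 0.0617), and the transcription factor Klf2 rose by 1.18 ± 0.32. Junb, the most abundant of the list, fell by 0.43 ± 0.13 (adjusted p = 0.019), a call that was lost without the lungs of Rat3877 (adjusted p = 0.0537) or Rat3875 (adjusted p = 0.0545).

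Of 16 tested targets of Nrf2, the regulator of antioxidant genes, 5 were called higher and 4 lower, with a median of 0.26 (5 and 3 without the lung of Rat3789). The count higher was 3 without the lung of Rat3877, the lung of Rat3869 or the core of Rat3876, and the count lower was 2 without the lung of Rat3875 or the cores of Rat3875, Rat3869 or Rat3867. Under scaling to total reads 8 were higher and 2 lower. Over all tested genes, 36.3% were called in the main fit, 17.1% higher and 19.1% lower. Slc7a11, the cystine importer, averaged 25.5 ± 13.6 CPM in lung and 121 ± 57.3 CPM in core (-2.25 ± 0.35, adjusted p = 0.000371), and Hmox1, which breaks down heme, fell by 1.6 ± 0.35 on the log2 scale. Srxn1, which repairs peroxiredoxins, rose, with 51.9 to 70.7 CPM in the lungs and 25.3 to 45.4 CPM in the cores (1.0 ± 0.15, adjusted p = 0.000247). Gstm1, a glutathione transferase, barely passed (0.89 ± 0.33, adjusted p = 0.0486). Its adjusted p was 0.0598 to 0.119 without the lungs of Rat3877, Rat3876, Rat3875 or Rat3869 or the cores of Rat3876, Rat3869 or Rat3867, and 0.0586 with the rat as a block. Prdx1, the most abundant of the list, stood at 496 to 670 CPM in the lungs and 457 to 533 CPM in the cores (0.20 ± 0.10, adjusted p = 0.134), and it passed under scaling to total reads (0.29, adjusted p = 0.036).

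Of 21 tested genes of cholesterol synthesis, 7 were called higher and 1 lower, with a median of 0.23, and 9 were higher and none lower without the lung of Rat3789. Without this library and the core of Rat3869, 12 were higher. None was lower without the lungs of Rat3876, Rat3875 or Rat3869 or the cores of Rat3877, Rat3876 or Rat3867, with the rat as a fixed block, or under scaling to total reads. The background is 36.3% called in either direction and 17.1% called higher. Dhcr7, the last enzyme of one branch, averaged 37.1 ± 2.94 CPM in lung and 23.1 ± 4.17 CPM in core (0.70 ± 0.13, adjusted p = 0.00132). Pmvk, a kinase of the mevalonate pathway (0.78 ± 0.15), and the isomerase Idi1 (0.71 ± 0.21) also rose. Hsd17b7 (0.58 ± 0.20, adjusted p = 0.0342) missed the threshold when any one of the lungs of Rat3877, Rat3875 and Rat3869 or the cores of Rat3877, Rat3876 and Rat3867 was left out (adjusted p from 0.065 to 0.0894). Against the rim the list ran the other way, with 12 of 21 called lower in lung and none higher (10 lower without the lung of Rat3789), and Idi1 was one of them (-0.78, adjusted p = 0.015).

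Of 24 tested nuclear genes of the respiratory chain, 8 were called higher and none lower, with a median of 0.17 (9 and none without the lung of Rat3789, 13 higher without the core of Rat3869, and 15 higher without both libraries). With the rat as a random block 1 was lower. Over all tested genes 36.3% were called in either direction and 17.1% higher. Atp5b, a subunit of ATP synthase and the most abundant of them, averaged 1240 ± 92.9 CPM in lung and 889 ± 53 CPM in core (0.48 ± 0.09, adjusted p = 0.00132). Sdhb, a subunit of complex II (0.65 ± 0.15), Ndufa4 (0.51 ± 0.11) and Ndufs1, a subunit of complex I (0.37 ± 0.08), also rose.

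Of 27 tested cytosolic ribosomal protein genes, 13 were called lower and none higher, with a median of -0.35 (11 lower without the lung of Rat3789). This count was 6 without the lung of Rat3877 and 6 under scaling to total reads, where the median was -0.25. The background in the main fit is 36.3% called in either direction and 19.1% called lower. Rpl3 averaged 848 ± 46.2 CPM in lung and 1330 ± 173 CPM in core (-0.65 ± 0.10, adjusted p = 0.0004), and Rps9 (-0.52 ± 0.12), Rps23 (-0.51 ± 0.14), Rpl32 (-0.47 ± 0.14) and Rpl4 (-0.40 ± 0.11) also fell. Rpl32 lost its call without the lung of Rat3877 (-0.42, adjusted p = 0.0604) and under scaling to total reads (-0.37, adjusted p = 0.0503).

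Of 25 tested lysosomal genes, 13 were called lower and 1 higher, against 19.1 and 17.1% of all tested genes. The median of the lysosomal genes was -0.36. The counts were 14 and 1 without the lung of Rat3789, and 10 of these genes were lower under scaling to total reads. Ctsl, the protease cathepsin L and the most abundant of them, stood at 1130, 1150, 1330, 1310 and 1840 CPM in the lungs and at 2260, 2110, 2680, 2250 and 2640 CPM in the cores, without overlap (-0.84 ± 0.14, adjusted p = 0.00061). The glycosidases Hexa (-1.0 ± 0.18) and Gla (-0.94 ± 0.20) fell by like amounts. Gpnmb, a membrane glycoprotein of macrophages and melanocytes, fell most (-3.04 ± 0.61, adjusted p = 0.00201), but its mouse reads in lung came to 0.544% of its rat reads. Between lung and rim, 6 of 25 lysosomal genes were called higher in lung and none lower. Without the lung of Rat3789, 6 were higher and 2 lower. There 20.1% of all tested genes were called.

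Targets of p53, which halts damaged cells, went both ways: of 16 tested, 6 were called lower and 4 higher, with a median of 0.01 (4 and 2 without the lung of Rat3789). The count higher was 1 to 2 without the lungs of Rat3877, Rat3875 or Rat3869 or the cores of Rat3875 or Rat3867, and 2 with the rat as a block. Over all tested genes, 36.3% were called in the main fit, 19.1% lower and 17.1% higher. Fas, the death receptor, averaged 2.21 ± 1.02 CPM in lung and 8.42 ± 2.23 CPM in core (-2.02 ± 0.31, adjusted p = 0.000323), and Btg2, which restrains division (-1.94 ± 0.33), and Gadd45a, a stress protein (-1.45 ± 0.24), fell. Cdkn1a, the cell cycle inhibitor p21, rose, with 13.9, 12.8, 17.6, 17.0 and 7.87 CPM in the lungs and 4.8, 3.24, 8.47, 7.90 and 7.55 CPM in the cores (1.15 ± 0.28, adjusted p = 0.00729).

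Of 19 tested genes of TGF-beta and BMP signaling, 6 were called lower and 2 higher, with a median of -0.46 (9 and 2 without the lung of Rat3789, and 12 lower without it and the core of Rat3869). The count higher was 1 without the lungs of Rat3876 or Rat3875 or the cores of Rat3875 or Rat3867, and with the rat as a block. In the main fit the called share was near the background of 36.3%. The targets Id1 and Id3, which block differentiation factors, parted: Id1 rose by 1.24 ± 0.21 (adjusted p = 0.000635) and Id3 fell by 1.13 ± 0.22 on the log2 scale (adjusted p = 0.00176). Smad6, a feedback inhibitor (-0.99 ± 0.28), and the ligand Tgfb2 (-0.98 ± 0.27) fell. In the lung of Rat3789, Id1, Id3 and Smad6 stood at 57.7, 68.6 and 15.5 CPM, the highest lung value of each. Bmp1, a protease that processes collagens and the most abundant of the list, did not pass against the core (-0.15 ± 0.13, adjusted p = 0.4) and was lower in lung than in rim (-0.86, adjusted p = 0.00218).

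Mouse versions of the markers of other cell types were used to look for host reads assigned to mouse. Of 10 alveolar type 2 markers, 3 were tested in mouse, of which none was called higher and 1 lower in lung, and Sftpb was not tested. Mouse Sftpb stood at 0.462, 0.421, 0.591, 0.296 and 0.0992 CPM in the lungs, at 0.0256 to 0.239 CPM in the cores and at 0.0231 to 0.0283 CPM in the rims. The 4 lungs with high rat Sftpb, at 971 to 2260 CPM, lay above every core and rim in mouse Sftpb, and the lung of Rat3789, at 1.99 CPM of rat Sftpb, did not. The part of rat reads assigned to mouse in this was not tested. The summed mouse level of this list, mostly the lipid transporter Abca3 and the transcription factor Etv5, was 116 to 145 CPM in the lungs, 99.4 to 158 CPM in the cores and 119 to 182 CPM in the rims. Of 11 airway markers, 3 were tested, of which none was called higher and 1 lower. The 5 airway markers in the deposited mouse table, tested or not, summed to 12.6 to 26.0 CPM in the lungs and 16.7 to 27.1 CPM in the cores. The highest lung sum was that of Rat3789, where Bpifb1, which was not tested, stood at 12.3 CPM. In the other lungs Bpifb1 stood at 0.0308 to 0.14 CPM. Ccdc39, a ciliary gene, was at 7.63 ± 0.50 CPM in lung and 9.37 ± 1.30 CPM in core. Of 9 alveolar type 1 markers, 5 were tested, with a summed level of 47.4 to 73.5 CPM in the lungs and 52.1 to 73.4 CPM in the cores. Of these Rtkn2 was called higher (0.79 ± 0.18), 1 was lower, and Cav1, the most abundant, was not called (0.06 ± 0.21). No mouse marker of smooth muscle, neutrophils or lymphocytes reached the level needed for testing.

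In the other marker lists a few mouse genes were called. Flt1, a VEGF receptor, was the most abundant of the 4 endothelial markers tested and was not called (0.28 ± 0.14). Of 5 fibroblast markers, 3 were lower in lung, Dcn among them, and Npnt, the integrin ligand nephronectin, rose, with 661, 717, 518, 295 and 448 CPM in the lungs and 161, 169, 132, 107 and 140 CPM in the cores (1.85 ± 0.21, adjusted p = 4.79e-05). Cd68, the only macrophage marker tested, was not called (-0.57 ± 0.22, adjusted p = 0.0557), and it passed without the core of Rat3876 (-0.74, adjusted p = 0.00916) and with the rat as a random block (-0.56, adjusted p = 0.0267). Itga2b, a platelet integrin, fell by 0.62 ± 0.20 on the log2 scale (adjusted p = 0.025), a call lost without the lung of Rat3876 (adjusted p = 0.0609) or the core of Rat3875 (adjusted p = 0.0585). The other erythroid and platelet marker tested, Alas2, was called higher in lung (1.25). Mouse Alas2 stood at 2.49, 9.24, 3.57, 2.48 and 1.13 CPM in the lungs, and rat Alas2 at 12.8, 34.4, 21.9, 15.5 and 7.22 CPM. The part of rat reads in the mouse values was not tested. Tnnt2, a troponin of heart muscle, fell, with 43.1, 42.2, 48.0, 85.4 and 86.4 CPM in the lungs and 336, 366, 425, 389 and 327 CPM in the cores (-2.67 ± 0.20), and its mouse reads in lung were far above its rat reads. Myh1 (2.16 ± 0.35) and Tnnt3 (1.40 ± 0.22), both of fast muscle, were called higher, and these had 303 and 659, and 376 and 308, mouse reads in the 2 gland libraries without mouse cells. Cfd, the adipocyte protease adipsin (2.16 ± 0.40), was called higher at 1.25 to 1.82 CPM in the lungs, where its mouse reads were 3.41% of its rat reads. At 0.173 to 0.892 CPM in the cores, it passed the filter through the lungs alone, so the separation of its groups follows from the filter.

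Over all 141 genes named by the rule, 125 were called between lung and core, none of these lost its call without the lung of Rat3789, and Pkm was the only one to gain it. The rule picks mostly called genes with large differences, so these counts follow largely from the choice. Of all tested genes, 36.3% were called, and 92.9% of those were called in the same direction without that library. Between lung and rim, 51 of the 137 named genes that were tested there were called, or 66 without the lung of Rat3789. The shares over all genes tested there were 20.1% and 21.8%.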

How the data were processed

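Polyadenylated RNA of tumor, lung, normal gland and a pellet of cultured cells was sequenced. Tools named in the submitters' processing notes are featureCounts, STAR, Trim Galore and limma, and the builds are GRCm38 and Rnor_6.0. Their versions, how reads were assigned to a species, and the strand setting are not stated there. For the tumor and lung libraries the authors deposited a normalized signal per gene, CPM on the voom scale. Each value equals a whole read count plus 0.5 read, times a constant of its library; within 0.01 reads, 100% of values came out whole. For the gland and pellet the authors deposited read counts, used for stray reads only. Depth was 15346400 to 26669410 mouse reads in the 10 libraries. Columns not mapped to a sample numbered 0.

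Lung and core were compared with limma 3.58.1 (trend, R 4.3.3) after a log2 transform of the deposited signal, in a two-sided test with no pseudocount added and Benjamini-Hochberg adjustment over 13058 genes. The lung and rim comparison was fitted the same way. A fold change on this scale understates genes with few reads. The p-values of these unpaired fits measure the spread between libraries of the same tissue, each from a different rat. In the lung and core comparison, 4 rats gave both tissues, and the main fit does not use this pairing. Shares were compared by exact permutation (numpy 2.4.6). Where a symbol has several identifiers, lists use the one with most reads. The scripts recovered most of the differences put into simulated data. Those data had few changed genes, the same dispersion for every gene, no rat effect and no outlying library. That checks the code and does not show how the test performs on the libraries here.

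Members, lists and the naming rule were chosen with earlier results of these data known. Named were the 10 largest rises and falls among called genes without overlap whose mean was 2 log2 CPM or more (predicted-gene names left out), up to 4 called members of each list by size and its most abundant member, for marker lists the most abundant member in lung and each called member of at least 2 log2 CPM in lung, and 5 fixed genes; a few of the genes so named are not reported here. Alternatives were other scalings, filters and pseudocounts, limma-voom, edgeR 4.0.16 and DESeq2 1.42.0 on the recovered counts, leaving out libraries, and the rat as a block. Libraries are paired by the rat that their labels name, and deviations of lung and core from their group means correlated at -0.10 (Rat3877), 0.06 (Rat3876), 0.19 (Rat3875) and 0.25 (Rat3869).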

Additional observations from a re-analysis of the deposited data

Results flagged for a closer look

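In 286 groups of 5 libraries, each a named gene or one of the shares of mouse and mitochondrial reads, in lung or in core, 19 held 1 library set apart from the other 4 by a gap of over 0.710 of the range on the log2 scale, and chance alone marks about 1 in 20 groups. The lung of Rat3789 was that library 8 times. It was the lowest lung for Nrcam at 7.04 CPM, Postn at 0.575 CPM, Top2a at 508 CPM, Mcm6 at 262 CPM and Ndufs1 at 104 CPM, and the highest for Pdgfc at 83.9 CPM, Gadd45a at 237 CPM and Id1 at 57.7 CPM. The core of Rat3869 was that library 7 times. It was the lowest core for Olfr1372-ps1 at 0.631 CPM, Itga8 at 10.4 CPM, Itgb4 at 253 CPM, Fn1 at 5850 CPM and Abca3 at 50.8 CPM, and the highest for Sdhb at 114 CPM and Rps9 at 1950 CPM. The core of Rat3876 was the lowest core for the stress genes Ppp1r15a at 14.5 CPM and Ddit3 at 25.2 CPM. The core of Rat3877 was the lowest core for Gins1 at 5.27 CPM, and the lung of Rat3875 the lowest lung for Pdgfb at 4.21 CPM.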

How the results depend on the processing

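Under 27 alternatives the counts of called genes stayed within 1.5 times of the values reported, between 3696 and 6088 in all, except that without a filter on low values 916 genes were at least 2-fold higher and 1200 at least 2-fold lower. Leaving out one library at a time gave 3696 to 5583 called genes, 1773 to 2768 higher and 1923 to 2815 lower, with 482 to 602 at least 2-fold higher and 669 to 820 at least 2-fold lower. The rat as a block gave 4797 called genes as a fixed effect and 5663 as a random one. For the mouse share, leaving out one library gave -16.3 to -13.5 points, and sign flips within the 4 rats that gave both tissues, a replicate block, gave -16.5 points with an exact p = 0.125, the smallest that 16 patterns allow. The mitochondrial share ran from -0.181 to 0.0191 points when one library was left out, and it changed sign without the core of Rat3876 (0.0191). Of 141 named genes, most of them named because they were called, 116 were called under every alternative that tested them. Of 3778 values of named genes under alternatives, 44 lost the call, 27 gained it and none changed sign while called; the cause was not tested. The fits that removed the trend with transcript length (5133 called) or left out both the lung of Rat3789 and the core of Rat3869 (6088 called), or kept the 4 rats without a block (4215 called), were chosen after the data were seen. Depth limits genes near 1 CPM most, where a library holds few reads.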

Other observations

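Genes below the level needed for naming held some of the widest gaps. These were chosen after their values were seen: 36 called genes had a mean under 2 log2 CPM, a log2 difference of at least 4 in size, and no overlap between lung and core, 13 higher and 23 lower in lung. Many of them reached 1 CPM only in the group where they are high, as did each gene named below except Pdgfrb. For these, the lack of overlap follows from the filter and is no separate result. Over all tested genes, 22.5% did not overlap. Ism1, a secreted protein called isthmin, stood at 18.7, 8.57, 12.1, 8.17 and 2.96 CPM in the lungs and at 0.307, 0.0743, 0.128, 0.0653 and 0.121 CPM in the cores, with 0.374 to 5.98 CPM in the rims. Sgk2, a kinase, stood at 10.9, 2.16, 11.2, 8.49 and 8.43 CPM in the lungs and at 0.230 to 0.805 CPM in the cores.

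Among the genes that were lower, Tnfrsf11b, the decoy receptor osteoprotegerin, stood at 0.462, 0.140, 0.0896, 0.114 and 0.0198 CPM in the lungs and at 29.5, 13.0, 10.8, 5.33 and 13.7 CPM in the cores, with 0.0748 to 0.531 CPM in the rims. Pdgfrb, a receptor for platelet-derived growth factor, stood at 0.139 to 1.02 CPM in the lungs, 3.02 to 29.5 CPM in the cores and 0.0249 to 0.312 CPM in the rims. Prelp, a matrix proteoglycan, stood at 0.0198 to 0.114 CPM in the lungs and 1.33 to 17.1 CPM in the cores. Wnt7a, a secreted Wnt ligand, stood at 0.0198 to 0.524 CPM in the lungs, 3.00 to 7.64 CPM in the cores and 2.07 to 23.3 CPM in the rims.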
